A study of Mus musculus with 2 samples.

Results

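The genes described here are the carriers that move amino acids, lactate, pyruvate and related small molecules across the cell surface. They were taken from the array by name, as every gene whose symbol begins with Slc1a, Slc3a, Slc6a, Slc7a, Slc16a, Slc36a, Slc38a or Slc43a and a number, without regard to any measured value. That gave 76 genes, covered by 130 probes, of 22010 named genes on the array, and 45 of the 76 could be measured. The label fits most but not all of them. Slc38a9 and Slc38a7 are known as lysosomal carriers, and Slc7a6os carries the symbol of its neighbour Slc7a6, on whose opposite strand it lies, but is no carrier.

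The cells were G1E-ER-GATA-1, a murine erythroid line labelled GATA-1-null that carries GATA-1 fused to an estrogen receptor domain, so that estradiol switches GATA-1 activity on. One arm was transfected with LMO2 siRNA and the other with control siRNA, and both then received b-estradiol for 24 h, so that both arms share the GATA-1 loss, the fusion and the hormone. Total RNA of both arms was compared on 2 Agilent arrays read in 2 colours, labelled Rep1 and Rep2 and called replicates 1 and 2 here, with LMO2 siRNA in Cy3 and control siRNA in Cy5 on both. A dye effect and the siRNA effect therefore cannot be told apart, and as the labels do not say whether the replicates were separate cultures, p-values measure only the spread between these 2 arrays.

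Amino acid carriers work in a few arrangements. Slc7 light chains such as Slc7a5 exchange 1 amino acid for another and reach the surface only when bound to the heavy chain Slc3a2. Slc1, Slc6 and Slc38 members draw substrates in with sodium, and the Slc16 monocarboxylate carriers move lactate and pyruvate together with a proton. In erythroid precursors glycine uptake by Slc6a9 is known to feed heme synthesis.

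Lmo2, the target, had normalized intensities of 1676.0 and 1633.2 in LMO2 siRNA cells, against 5906.7 and 6603.3 in control siRNA cells, a mean log2 ratio of -1.92 ± 0.14 (SD, n = 2 arrays) or 3.78-fold lower (limma, adjusted p = 3.6e-21). All intensities here are brightness on a linear scale after normalization within and between arrays, and are compared only within a probe, or as a sum over the same probes in both arms. Between 55.8% and 68.2% of gene spots stood well above background in a channel. Of 12 erythroid markers 11 were measured, all 11 well above background in both channels of both arrays, with 3 called higher and 5 lower. The probes of the globins Hbb-bt and Hba-a1, counted as higher, were saturated in both arms on both arrays and give no ratio. Of 6 markers of pluripotent stem cells, the cell type the labels also name, 3 were measured. All 3 were dim, at intensities of 78.0 to 104.1, and none was called. Summed intensities of the measured mast cell markers were 2621 and 2753 in LMO2 siRNA cells, against 1974 and 1805 in control siRNA cells, with 3 of 7 called higher and none lower (5 and 2 with position correction). Without Hdc, the member that moved most, they were 1802 and 1873 in LMO2 siRNA cells, against 1637 and 1411 in control siRNA cells. Most of this remaining gap lay in Mitf, the brightest marker, with 1295.1 and 1330.4 in LMO2 siRNA cells against 1135.0 and 898.8 in control siRNA cells. The dim Cpa3 was also called higher (0.37). Prss34 (-0.06), Cma1 (-0.03), Fcer1a (-0.03) and Tpsb2 (0.01) were dim and not called with loess. Those of the megakaryocyte markers were 2986 and 3227 in LMO2 siRNA cells, against 2188 and 2239 in control siRNA cells, with 2 of 7 called higher and 1 lower (4 and 1 with position correction). Gp1ba alone set this gap in the sums: without it they were 1348 and 1405 in LMO2 siRNA cells, against 1449 and 1453 in control siRNA cells. The dimmer Gp5 was also called higher (0.62), and Gp9 was called lower (-0.31). The granulocyte and macrophage markers summed to 593 and 682 in LMO2 siRNA cells and 564 and 640 in control siRNA cells (2 of 5 called higher). Cd68 alone set this gap: without it the sums were 449 and 515 in LMO2 siRNA cells, against 463 and 529 in control siRNA cells. The lymphocyte markers summed to 537 and 518 in LMO2 siRNA cells and 646 and 582 in control siRNA cells (2 of 4 called lower). The part of other cell types in the carriers' ratios was not tested, and a change in cells of a type and a change in RNA per cell cannot be told apart in such bulk RNA.

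Among the 45 measured carriers, 10 were called higher and 11 lower in LMO2 siRNA cells by limma (adjusted p below 0.05 over all 14314 genes), and 24 were not called. Carrier counts, here and below, take in Slc7a6os. Without it, 10 of 44 were called higher and 10 lower. Of all genes tested 24.5% were called higher and 27.4% lower, and the carriers' 22.2% and 24.4% lie near this background. Their median log2 ratio was -0.03, against -0.02 over all genes. With loess normalization, though not with median centring, which called none of the 45 higher and 21 lower, calls went both ways within Slc6, Slc38 and Slc16. Slc7 had 3 called higher and 1 lower of 11, the lower one being the non-carrier Slc7a6os. Slc6 had 3 and 1 of 11, Slc38 had 1 and 3 of 6, and Slc16 had 1 and 3 of 8, with loess only. Both measured Slc43 genes were called lower. Median centring moved the median of all genes to -0.40, and the share of all genes called with it was not counted. Unless stated, median-centred values below are given as they stand, not relative to that median. Relative to it, 3 of the 21 called carriers changed sign. As they stand, all carriers called lower with loess also had negative means with median centring.

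**Figure D1:**
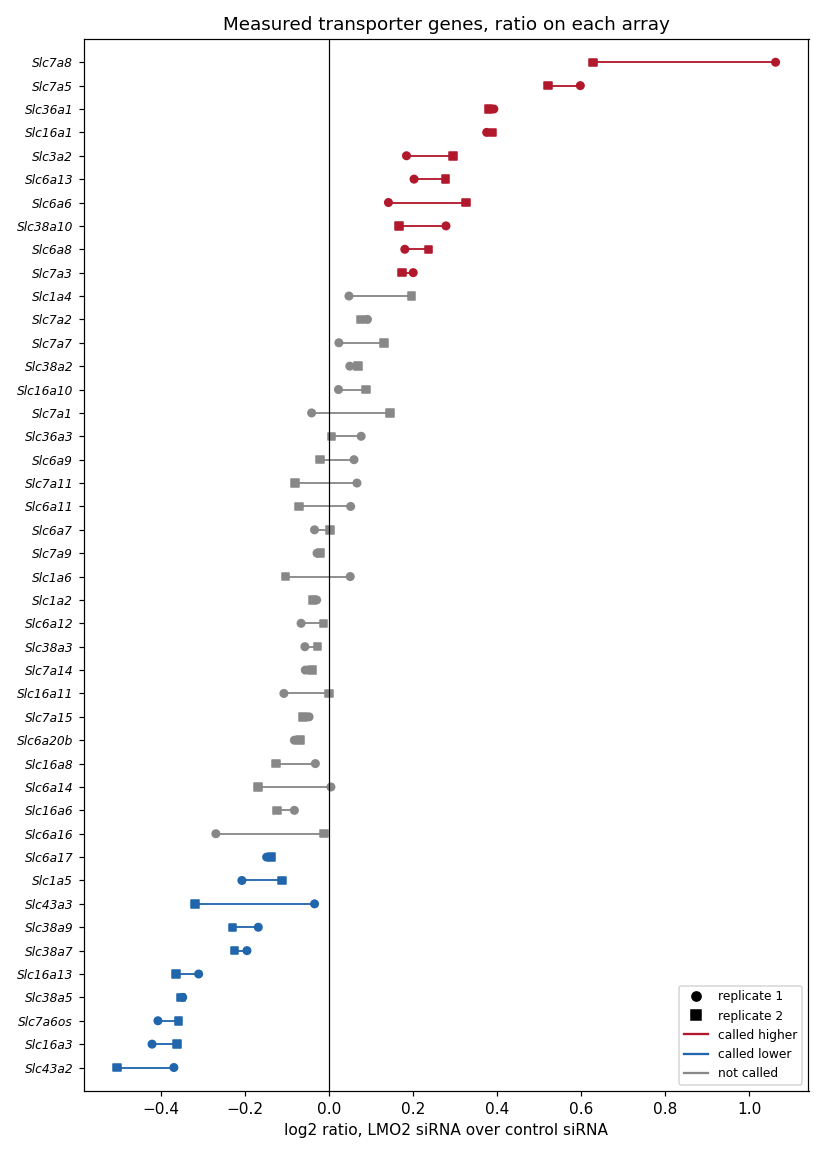
Log2 ratio of LMO2 siRNA over control siRNA on each array for 44 of the 45 measured carriers, ordered by their mean, with 1 line joining the arrays of a gene and colour for the limma call. Slc7a8 has the highest mean (0.85) and Slc43a2 the lowest of those drawn (-0.44), and the 24 genes that were not called lie between -0.14 and 0.12. With median centring in place of loess, 7 of the 10 genes drawn as higher have a negative mean. The median of all genes is then -0.40.

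Correcting for position on the array changed many of these ratios. Dividing out the scanner's own position factor before loess moved a carrier's log2 ratio by a median of 0.15, and 13 of the 21 calls were made again with the same sign. With the correction Slc38 had 0 called higher and 3 lower, so its calls no longer went both ways. Called the same way with and without this correction, a rule added after seeing the data, were 7 carriers higher and 6 lower, against 15.5% and 13.1% of all genes. By this rule Slc6 had 2 higher and 0 lower, Slc38 had 0 and 2, and Slc16 had 1 and 1. The words rose and fell are kept here for genes also called the same way from the scanner's processed signals, and 1 carrier rose (Slc6a8, at -0.20 with median centring) and 1 fell, against 5.33% and 2.43% of all genes. From processed signals alone 2 were called higher (Slc6a8 and Slc7a3) and 2 lower, against 6.82% and 3.42% of all genes. The part of position, dye and signal strength in the other calls was not tested.

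**Figure D2:**
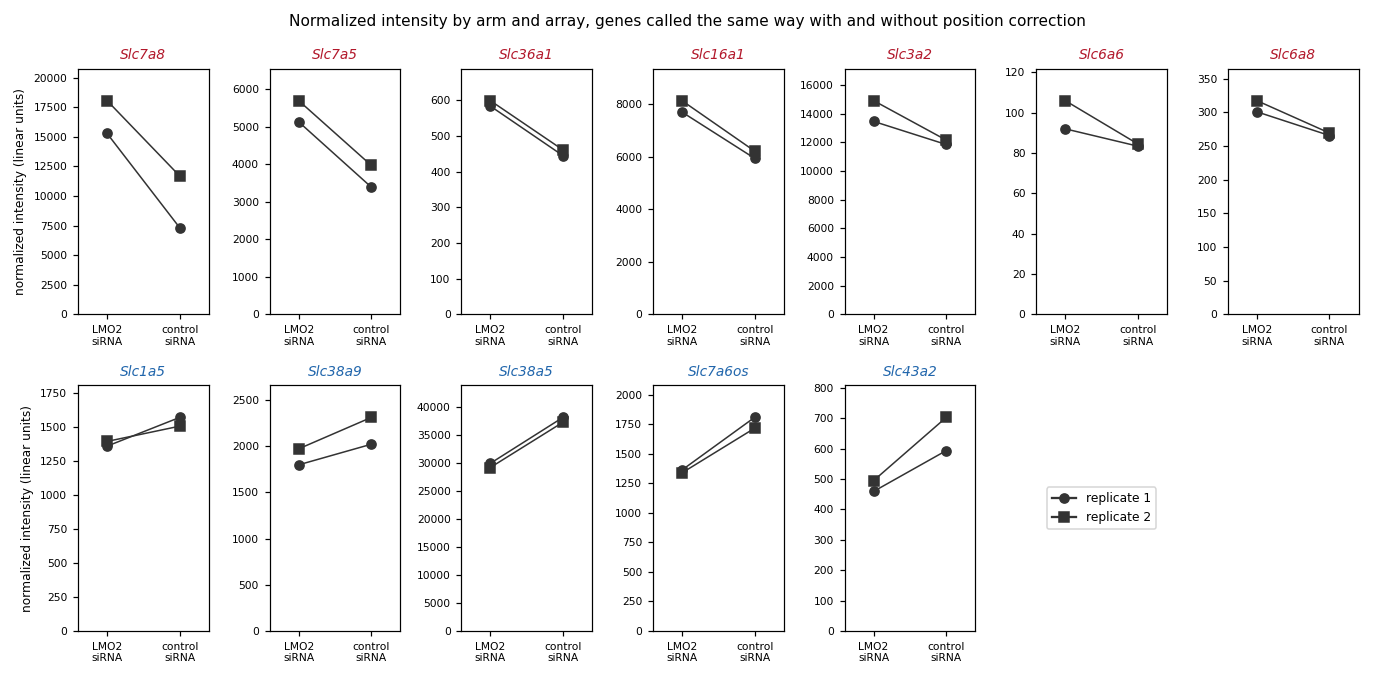
Normalized intensity (linear units, axes from 0) in LMO2 siRNA and control siRNA cells on each of the 2 arrays for 12 of the 13 carriers called the same way with and without position correction, the 7 higher ones in the upper row and 5 lower ones in the lower row. In every panel both arrays run the same way, which the choice of called genes made likely. Slc7a8 has the steepest line, with 15299.3 and 18074.0 in LMO2 siRNA cells against 7321.3 and 11696.9 in control siRNA cells. With median centring in place of loess, Slc7a5, Slc36a1, Slc16a1, Slc3a2 and Slc6a8 have a negative mean. The median of all genes is then -0.40.

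The exchangers of large neutral amino acids and their heavy chain were all called higher with loess (with median centring Slc7a5 and Slc3a2 had negative means), and Slc43a2, a uniporter of the same substrates, was called lower. Slc7a8, a light chain that exchanges neutral amino acids, had intensities of 15299.3 and 18074.0 in LMO2 siRNA cells, against 7321.3 and 11696.9 in control siRNA cells. Both LMO2 siRNA values lay above both control siRNA values, though the arrays differed in size, with log2 ratios of 1.06 and 0.63. The mean was 0.85 ± 0.31 (SD, n = 2 arrays; 1.80-fold, limma, adjusted p = 1.9e-11), and Slc7a8 was the one carrier at least 1.5-fold different on both arrays, against 3.08% of all genes called higher and 1.18% called lower at that size. It was 0.75 with position correction (adjusted p = 6.1e-05), 0.77 from processed signals (adjusted p = 0.059), where it was not called, and 0.11 with median centring.

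Slc7a5, the light chain that imports leucine and other large neutral amino acids in exchange for glutamine, had 5128.3 and 5694.1 in LMO2 siRNA cells, against 3387.7 and 3967.0 in control siRNA cells. The arms did not overlap, and the ratios of 0.60 and 0.52 gave a mean of 0.56 ± 0.05 (SD, n = 2 arrays; limma, adjusted p = 1.4e-09). Slc7a5, like Slc7a8, was smaller with position correction (0.36, adjusted p = 0.00041). With median centring Slc7a5 was -0.12, which lay 0.29 above the median of all genes. Their shared heavy chain Slc3a2 had 13464.7 and 14914.2 in LMO2 siRNA cells, against 11850.5 and 12157.8 in control siRNA cells. Again the arms did not overlap, but the difference was small: 0.24 ± 0.08 (SD, n = 2 arrays; limma, adjusted p = 0.00073), 0.17 with position correction (adjusted p = 0.026) and -0.50 with median centring, which also turned it below the median of all genes. The other measured partners of Slc3a2 were not called with loess. Slc7a7, which exchanges cationic for neutral amino acids, stood at 0.08 ± 0.08, and Slc7a11, which exchanges cystine for glutamate, at -0.01 ± 0.10 (SD, n = 2 arrays each).

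Slc43a2, which lets large neutral amino acids pass down their gradient without a heavy chain, had 459.4 and 494.9 in LMO2 siRNA cells, against 593.7 and 703.0 in control siRNA cells. Both LMO2 siRNA values were the lower, and the mean log2 ratio was -0.44 ± 0.10 (SD, n = 2 arrays; limma, adjusted p = 1.9e-07) and -0.35 with position correction (adjusted p = 0.00068). A dimmer probe of the gene went the other way, and the mean of both probes was -0.12 and not called (adjusted p = 0.059). Slc43a3, known in human cells as a purine nucleobase carrier, was called lower at -0.18 ± 0.20 (adjusted p = 0.017), but its arms overlapped, with 8619.3 and 6810.9 in LMO2 siRNA cells and 8830.5 and 8500.3 in control siRNA cells. Its mean was 0.01 with position correction.

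Slc38a5 and Slc1a5, both carriers of glutamine, were called lower. Slc38a5, which brings glutamine in with sodium in exchange for protons, had the tightest ratios of the called carriers: 29985.7 and 29240.2 in LMO2 siRNA cells, against 38205.1 and 37340.2 in control siRNA cells. The arms form 2 narrow pairs that do not overlap, with a mean log2 ratio of -0.35 ± 0.002 (SD, n = 2 arrays; limma, adjusted p = 4.5e-06) and -0.41 with position correction (adjusted p = 0.00015). From processed signals it was -0.38 and just missed the threshold (adjusted p = 0.053). Slc1a5, which exchanges glutamine for other small neutral amino acids, had 1360.3 and 1395.1 in LMO2 siRNA cells, against 1571.8 and 1507.4 in control siRNA cells. The arms lay close but did not overlap, at -0.16 ± 0.07 (SD, n = 2 arrays; limma, adjusted p = 0.019) and -0.23 with position correction (adjusted p = 0.0064). The call was lost with a normexp offset of 10 (-0.14, adjusted p = 0.1) and from processed signals (adjusted p = 0.092).

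Slc38a9, the lysosomal carrier that signals arginine to mTORC1, had 1797.3 and 1970.2 in LMO2 siRNA cells, against 2020.0 and 2310.0 in control siRNA cells. The highest LMO2 siRNA value sat just under the lowest control siRNA value, and the mean was -0.20 ± 0.04 (SD, n = 2 arrays; limma, adjusted p = 0.0037), with -0.26 after position correction (adjusted p = 0.0031). Slc38a7, which lets glutamine out of lysosomes, was called lower at -0.21 ± 0.02 (adjusted p = 0.0022) but stood at 0.03 with position correction. Slc38a10 was called higher at 0.22 ± 0.08 (adjusted p = 0.0015), was not called at 0.05 with position correction, and was -0.47 with median centring. Slc38a2, which accumulates small neutral amino acids and is known to respond to amino acid shortage, was not called at 0.06 ± 0.01, and Slc1a4, a carrier of serine and alanine, was not called at 0.12 ± 0.11 (SD, n = 2 arrays each).

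Of the carriers of arginine and lysine without a heavy chain, Slc7a3 alone was called with loess. Slc7a1 had 881.1 and 922.1 in LMO2 siRNA cells, against 907.2 and 834.2 in control siRNA cells. The arms overlapped, with a mean of 0.05 ± 0.13, though position correction put it at -0.19 (adjusted p = 0.026). Slc7a2 was not called. Slc7a3, a dim probe with 92.1 and 91.0 in LMO2 siRNA cells against 80.2 and 80.7 in control siRNA cells, was called higher at 0.19 ± 0.02 (SD, n = 2 arrays; limma, adjusted p = 0.0061). It was not called with position correction (0.07, adjusted p = 0.32). Processed signals, to which no offset was added, called it higher at 0.835 (adjusted p = 0.033). Slc36a1, a proton-coupled carrier of glycine, alanine and proline in the plasma membrane and lysosomes, had 584.3 and 599.6 in LMO2 siRNA cells, against 445.2 and 461.2 in control siRNA cells. The arms did not overlap, at 0.39 ± 0.01 (SD, n = 2 arrays; limma, adjusted p = 1.1e-06), 0.22 with position correction (adjusted p = 0.0072) and -0.12 with median centring.

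The monocarboxylate family split by member. Slc16a1, which carries lactate and pyruvate in either direction, had 7712.1 and 8147.3 in LMO2 siRNA cells, against 5947.5 and 6223.4 in control siRNA cells. The arms did not overlap, and the mean of 0.38 ± 0.01 (SD, n = 2 arrays; limma, adjusted p = 1.2e-06) was 0.39 with position correction (adjusted p = 0.0002), 0.40 from processed signals (adjusted p = 0.05, not called) and -0.32 with median centring. Slc16a3, the lactate exporter of glycolytic cells, had 244.0 and 214.2 in LMO2 siRNA cells, against 326.9 and 275.5 in control siRNA cells. It was called lower at -0.39 ± 0.04 (SD, n = 2 arrays; limma, adjusted p = 8.3e-07), but position correction left -0.10 (adjusted p = 0.19). Slc16a13 was called lower at -0.34 ± 0.04 (adjusted p = 8.5e-06) but was -0.04 with position correction. Slc16a10, a carrier of aromatic amino acids, at 0.06 ± 0.05, and Slc16a6, at -0.10 ± 0.03, were not called (SD, n = 2 arrays each).

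Bsg, the chaperone that Slc16a1 and Slc16a3 need to reach the surface, had 1669.4 and 1509.5 in LMO2 siRNA cells, against 1715.3 and 1773.9 in control siRNA cells. Its mean of -0.14 ± 0.14 was not called (SD, n = 2 arrays; limma, adjusted p = 0.054) and was 0.14 with position correction. The other chaperone of the family, Emb, was not measured.

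In the sodium- and chloride-coupled Slc6 family, the carriers called higher with loess take up creatine, taurine and GABA (those of creatine and GABA had negative means with median centring). Slc6a8, the creatine carrier, rose: it had 301.0 and 317.6 in LMO2 siRNA cells, against 265.7 and 269.4 in control siRNA cells. The arms did not overlap, and the mean was 0.21 ± 0.04 (SD, n = 2 arrays; limma, adjusted p = 0.0025). It was larger with position correction (0.41, adjusted p = 0.00018) and from processed signals (0.47, adjusted p = 0.049). With median centring it was -0.20, which lay 0.20 above the median of all genes. Slc6a6, the taurine carrier, was dim, with 92.0 and 106.0 in LMO2 siRNA cells against 83.4 and 84.5 in control siRNA cells. It was called higher at 0.23 ± 0.13 (SD, n = 2 arrays; limma, adjusted p = 0.0012) and 0.45 with position correction (adjusted p = 0.00024), while processed signals, to which no offset was added, gave 1.04 (adjusted p = 0.077).

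Slc6a13, a carrier of GABA and taurine, was called higher at 0.24 ± 0.05 (SD, n = 2 arrays; limma, adjusted p = 0.00066) but was 0.07 with position correction (adjusted p = 0.32) and -0.39 with median centring. Slc6a17, known from synaptic vesicles of neurons, was called lower at -0.14 ± 0.01 (adjusted p = 0.033), and position correction left -0.10 (adjusted p = 0.16). Slc6a9, the glycine carrier, was bright and not called, with 11811.6 and 11352.6 in LMO2 siRNA cells and 11338.4 and 11526.6 in control siRNA cells. Its arms overlapped at a mean of 0.02 ± 0.06, although position correction gave -0.20 (adjusted p = 0.012). Slc7a6os, the non-carrier, had 1361.4 and 1337.3 in LMO2 siRNA cells, against 1806.6 and 1714.8 in control siRNA cells, with no overlap, at -0.38 ± 0.03 (SD, n = 2 arrays; limma, adjusted p = 1.2e-06) and -0.20 with position correction. Slc7a6 itself was not measured.

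**Figure D3:**
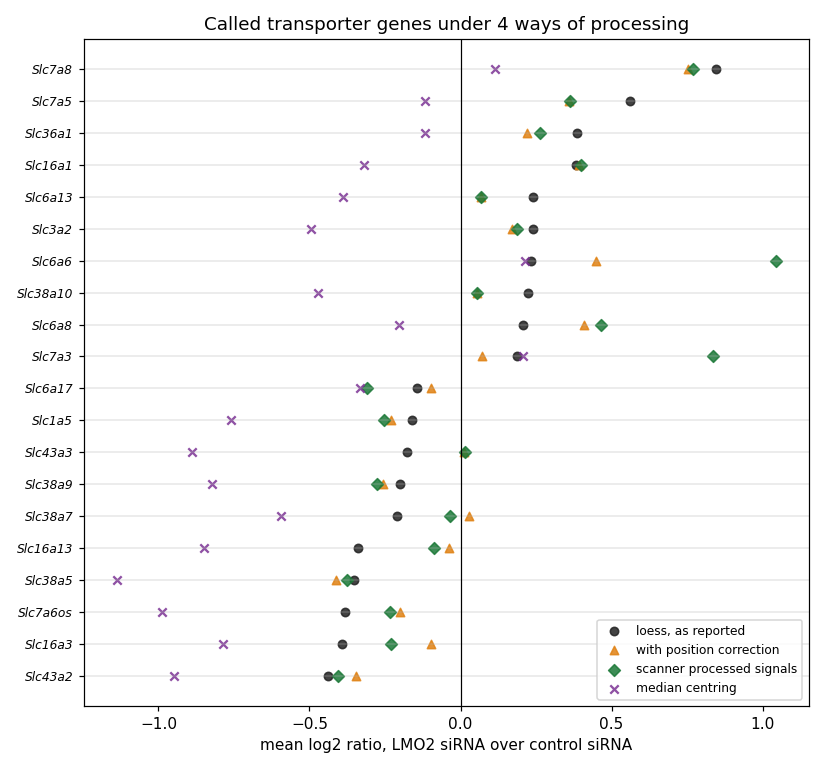
Mean log2 ratio of LMO2 siRNA over control siRNA (n = 2 arrays) for 20 of the 21 called carriers under loess, loess with position correction, scanner processed signals and median centring. Position correction brings Slc38a7 to 0.03 and Slc43a3 to 0.01, processed signals put the dim Slc6a6 at 1.04, and median centring moves 7 of the 10 genes called higher below 0. All genes have a median of -0.40 with median centring.

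The promoters of 3 carriers are shown as examples of an exchanger, a lactate carrier and a glutamine carrier, chosen after their values were seen from those with an entry in the RefSeq promoter table of GRCm38.p6. Each runs from 250 bases before the gene's start to 50 after it. Capitals mark a GATA motif (GATA with A or T before it and A or G after it), an E-box (CACGTG) or an amino acid response element (TGATGNAA), each searched on both strands. They are Slc7a8 (chr14:54781837-54782136, minus strand), Slc16a1 (chr3:104638414-104638713, plus strand) and Slc38a5 (chrX:8271131-8271430, plus strand).
Slc7a8: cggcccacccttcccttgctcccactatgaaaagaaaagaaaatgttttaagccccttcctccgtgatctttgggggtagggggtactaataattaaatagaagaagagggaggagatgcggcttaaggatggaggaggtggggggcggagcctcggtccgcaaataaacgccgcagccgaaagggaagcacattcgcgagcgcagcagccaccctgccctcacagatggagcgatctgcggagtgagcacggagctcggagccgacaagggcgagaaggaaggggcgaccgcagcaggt
Slc16a1: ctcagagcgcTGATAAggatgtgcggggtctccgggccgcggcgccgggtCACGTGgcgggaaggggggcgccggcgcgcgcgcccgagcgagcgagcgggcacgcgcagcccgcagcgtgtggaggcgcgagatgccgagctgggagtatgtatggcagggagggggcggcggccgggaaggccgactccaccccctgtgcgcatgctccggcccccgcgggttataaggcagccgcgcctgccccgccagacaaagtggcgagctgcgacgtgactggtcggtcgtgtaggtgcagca
Slc38a5: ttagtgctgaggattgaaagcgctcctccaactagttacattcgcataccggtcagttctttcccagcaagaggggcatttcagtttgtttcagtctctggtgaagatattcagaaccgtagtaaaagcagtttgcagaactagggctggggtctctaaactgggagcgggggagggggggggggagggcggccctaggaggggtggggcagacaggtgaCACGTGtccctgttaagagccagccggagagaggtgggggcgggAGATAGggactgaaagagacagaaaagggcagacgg
Slc7a8, called higher with loess, holds none of these letters in the window. Slc16a1, called higher, and Slc38a5, called lower, each hold 1 GATA motif and 1 E-box, at bases 11 and 51 of the window in Slc16a1 and at bases 265 and 221 in Slc38a5. Over the 74 promoters listed for 53 of the 76 genes, 32.4% hold a GATA motif, against 29.8% of all 32851 promoters. The E-box is in 14.9%, against 7.15% of all, and the amino acid response element in 5.41%, against 3.97% of all. The carriers' windows had a median GC content of 57.7%, against 52.7% over all windows. Of the carriers called the same way with and without position correction, the 4 promoters of higher ones hold a GATA motif in 1 and an E-box in 2, and the 5 of lower ones hold a GATA motif in 2 and an E-box in 1. These matches describe letters only.

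For 12 measured carriers more than 1 probe could be used, and in 7 of them the probes differed in sign. In Slc38a2 and Slc38a9, 1 probe stood far below the others. To show which stretches these are, the first 30 of the 60 bases of each probe follow, numbered from the brightest. The genes lie on chromosomes 15 and 13.
Slc38a2 probe 1: aaggttccaaatgaatttcaggccaaattc
Slc38a2 probe 2: caaagaatagtgttacttttagatttcaaa
Slc38a2 probe 3: ttgaatgtgcctaacggaaccattcgatgt
Slc38a2 probe 4: tgtgacagttgagaaattttggttagttga
Slc38a9 probe 1: gctcagtttttcatgtgaaaactctcttct
Slc38a9 probe 2: gcttctgacaagatgactgagaaatgcaga
Slc38a9 probe 3: ttactggtattaactagcattactggtatt
Probe 2 of Slc38a2 had 516.5 and 496.9 in LMO2 siRNA cells, against 858.1 and 791.2 in control siRNA cells, or -0.70 ± 0.04 (SD, n = 2 arrays; limma over all used probes, adjusted p = 7.7e-08) and -0.53 with position correction. The gene's other 3 probes stood at 0.06, -0.08 and 0.06, none called. Probe 2 and probe 4 were both designed on the same cDNA entry, and the others on the RefSeq transcript. Probe 3 of Slc38a9, also designed on a cDNA entry, had 177.4 and 184.0 in LMO2 siRNA cells, against 280.7 and 322.2 in control siRNA cells, or -0.74 ± 0.10 (limma, adjusted p = 7.1e-08), while its RefSeq probes stood at -0.20 (adjusted p = 0.0093) and 0.01 (adjusted p = 0.94). Which transcripts each probe detects was not tested.

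In Slc43a2 and Slc38a10, probes were called in opposite directions. Slc43a2 was -0.44 at its brighter probe and 0.19 at a dim one (limma over probes, adjusted p = 1.6e-05 and 0.012), the second at 0.02 with position correction. Slc38a10 was 0.22 and -0.15 (adjusted p = 0.0052 and 0.049), and both came near 0 with position correction, at 0.05 each. Slc6a17 was -0.14 and 0.07. For Slc16a6, which was not called, the second probe gave 0.27 ± 0.31 (adjusted p = 0.011) because replicate 1 stood at 0.48 and replicate 2 at 0.05. Probes of Slc16a1 ran the same way at 0.38, 0.36 and 0.11, and those of Slc3a2 at 0.24 and 0.10, the last of each not called.

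**Figure D4:**
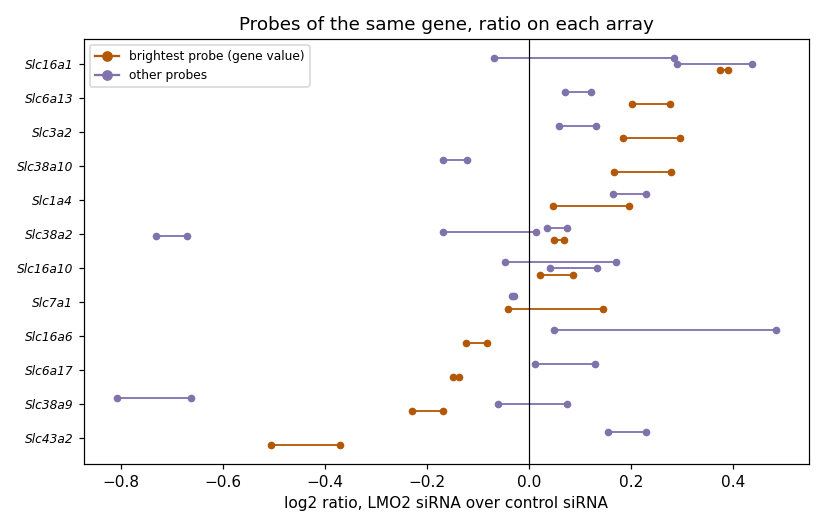
Log2 ratio of LMO2 siRNA over control siRNA on each array for every used probe of the 12 carriers with more than 1, the brightest probe of each gene set apart by colour. The probes of Slc38a2 at -0.70 and of Slc38a9 at -0.74 stand apart from the other probes of their genes, and the 2 probes of Slc43a2 lie on opposite sides of 0. All values are from loess, and with median centring the gene values of Slc16a1 (-0.32), Slc6a13 (-0.39), Slc3a2 (-0.50) and Slc38a10 (-0.47) lie below 0. All genes have a median of -0.40 with median centring.

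Of the remaining carriers, 31 of the 76 were not measured, and 24 of these were not well above background in any channel. The 31 include Slc43a1, Slc1a1, Slc1a3, Slc38a1, Slc7a6, Slc3a1, which is the heavy chain of the cystine carrier, and the lactate carrier Slc16a7. Neurotransmitter carriers (Slc6a2, Slc6a3, Slc6a4 and Slc6a5) were also among them, and a difference in them was not detectable on these 2 arrays. Slc6a12, the betaine carrier, was not well above background in LMO2 siRNA cells on either array, and was not called with loess (-0.04 ± 0.04). Position correction alone added calls for 10 further carriers, 7 lower (Slc6a16, Slc6a20b, Slc16a6, Slc7a1, Slc16a10, Slc38a2 and Slc6a9) and 3 higher (Slc6a12, Slc7a15 and Slc7a7), against 7.37% of all genes added as lower and 7.67% as higher. All calls with position correction came to 24.1% of genes higher and 20.5% lower.

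Genes that act with the carriers were described from lists chosen by function. Each list's first counts are with loess and stand against 24.5% of all genes called higher and 27.4% lower. From processed signals, 6.82% of all genes were called higher and 3.42% lower. For median centring this share was not counted, and the median of all genes was -0.40. The median-centred counts and values below are therefore not set against a background. Of 21 measured genes of the amino acid response, made up of Atf4, its upstream kinases and its known targets, 3 were called higher and 11 lower. With position correction 2 and 8 were called the same way, against 15.5% and 13.1% of all genes. Asns, 1 of these 2 higher genes, was saturated in control siRNA cells on both arrays. Its ratio of 0.21 (0.565 with position correction) is therefore uncertain. Median centring gave 0 higher and 20 lower, and processed signals 0 and 3. Their median log2 ratio was -0.14, against -0.02 over all genes. Among them were Trib3, a pseudokinase that damps Atf4, at -0.61 ± 0.20 (SD, n = 2 arrays; limma, adjusted p = 1.3e-09) and Psph, of serine synthesis, at -0.60 ± 0.06 (adjusted p = 3.6e-10). With position correction Trib3 was -0.45 and Psph only -0.175 (adjusted p = 0.024). From processed signals Psph was -0.20 and not called (adjusted p = 0.12). Eif2ak1, the heme-sensing kinase upstream of Atf4, stood at -0.57 ± 0.15 (adjusted p = 2.4e-09), and at -0.40 with position correction. Pck2, the mitochondrial carboxykinase, was -0.44 ± 0.06 (adjusted p = 1.4e-07) but was not called with position correction (-0.09).

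Of 25 measured genes by which mTORC1 senses amino acids, 9 were called higher and 7 lower, with a median of 0.01. Median centring gave 1 and 21, and processed signals 0 and 1. Depdc5, of the complex that restrains mTORC1 when amino acids are short, fell at -0.60 ± 0.05 (SD, n = 2 arrays; limma, adjusted p = 3.5e-10). Nprl3 and Nprl2, of the same complex, went the other way and were called higher at 0.37 ± 0.01 and 0.18 ± 0.09 (adjusted p = 2e-06 and 0.0098). With position correction Nprl3 was 0.26 and Nprl2 0.01 (not called), and with median centring they were -0.21 and -0.36. The mTORC1 inhibitor Tsc1 was called lower at -0.55 ± 0.10 (adjusted p = 3.3e-09), and was -0.26 with position correction. Lamtor1, the lysosomal anchor of the pathway, was called higher at 0.53 ± 0.04 (adjusted p = 4.7e-09), and was 0.26 with position correction and -0.22 with median centring. Tsc2 was -0.40 ± 0.09 (adjusted p = 7.2e-07), and 0.00 with position correction.

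Of 16 measured genes of glutamine, glutamate and glutathione metabolism, 7 were called higher and 5 lower. Median centring gave 0 and 11, and processed signals 2 and 1. Glud1, which turns glutamate into alpha-ketoglutarate, rose at 0.62 ± 0.002 (SD, n = 2 arrays; limma, adjusted p = 1.4e-10), and was -0.03 with median centring. The aspartate aminotransferase Got2 was called higher at 0.47 ± 0.04 (adjusted p = 3.7e-08), and was 0.29 with position correction and -0.20 with median centring. Aldh18a1, the first enzyme from glutamate to proline, was called lower at -0.61 ± 0.14 (adjusted p = 6.2e-10), and was -0.28 with position correction.

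Of 11 measured genes of lactate and pyruvate use, 4 were called higher and 1 lower. Median centring gave 0 and 9, and processed signals 0 and 0. Mpc2, a subunit of the mitochondrial pyruvate carrier, was called higher at 0.53 ± 0.03 (SD, n = 2 arrays; limma, adjusted p = 3.5e-09), and was 0.30 with position correction and -0.17 with median centring. Pdk1, the kinase that switches pyruvate dehydrogenase off, was called lower at -0.51 ± 0.21 (adjusted p = 5.9e-08). Ldha and Pdhb were called higher at 0.21 and 0.20, but stood at -0.02 and 0.01 with position correction and at -0.59 and -0.50 with median centring. The 20 cytosolic tRNA synthetases had 5 called higher and 7 lower, with a median of -0.07. Position correction gave 1 and 5, median centring 0 and 20, and processed signals 0 and 1. Cars, the cysteine enzyme, fell at -0.54 ± 0.08 (adjusted p = 3.2e-09). Qars, the glutamine enzyme, was called higher at 0.46 ± 0.01 (adjusted p = 5.4e-08) but was 0.23 with position correction and -0.27 with median centring. Farsa (-0.46) and Yars (-0.38) were called lower, and not with position correction.

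Among factors known to act on carrier genes, Max, the DNA-binding partner of Myc, fell at -0.88 ± 0.003 (SD, n = 2 arrays; limma, adjusted p = 6.2e-14). Myc was called higher at 0.32 ± 0.04 (adjusted p = 2.2e-05), and -0.35 with median centring. Atf4 was called lower at -0.31 ± 0.03 (adjusted p = 3.6e-05), and was -0.16 with position correction (adjusted p = 0.033). Of 7 measured factors 1 was called higher and 2 lower, and the rest, Mlxip (0.11) among them, were not called. Of 4 measured partner proteins of carriers, Arl6ip5, which binds the glutamate carrier Slc1a1, was called higher at 0.47 ± 0.15 (adjusted p = 1.1e-07), and -0.18 with median centring. Arl6ip1, of the same list, was called lower at -0.18 ± 0.06 (adjusted p = 0.0082) but not with position correction (-0.14). Cltrn, a partner of Slc6 carriers in the kidney, was not called at -0.03.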

How the data were processed

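The arrays were read by Agilent's Feature Extraction 9.1.3.1, as the file headers state. Deposited for each spot is the intensity in both channels, as mean signal, local background and a processed signal that the scanner software corrected for background, position and dye, and a multiplicative position ratio per channel, per the file headers. The deposited log10 ratios are red (control siRNA) over green (LMO2 siRNA), and the series' value table holds them within 0.005 for all 45018 spots of each array, with a median of 0. Both arrays lie on 1 slide, so no batch could be tested. For the array's genome build, the sources used here name none.

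From the mean signals, background was corrected by normexp (offset 50), which draws the ratios of dim probes towards 0, and loess was run within each array in limma 3.58.1 (R 4.3.3) with control spots at weight 0. All ratios have LMO2 siRNA on top. Printed intensities were also scaled between arrays (Aquantile). A probe was kept where both arrays had a channel well above background (24735 of 41174 probes, 62 of them of the carriers). Probes took a RefSeq symbol (GRCm38.p6, names only) where possible: 24844 did, 9636 kept the file's symbol and 6694 had none. A gene is its brightest used probe. Means were tested against 0 by limma's moderated test (lmFit, then eBayes, with 28 prior and 1 residual degrees of freedom) and Benjamini-Hochberg adjustment over 14314 genes at 0.05. The test was run on simulated data drawn from its own variance model. These held no dye, position or slide effect, so they say nothing of such effects in the calls. Across genes the arrays' ratios had r = 0.898, or 0.735 from processed signals. For position correction, the background-corrected signals were divided by the position ratio before loess.

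Named with values are the called carriers, those whose probes differ in sign with 1 called, known partners, and up to 4 genes per list with the largest mean. Slc7a1, Slc7a2, Slc7a7, Slc7a11, Slc1a4, Slc6a9, Slc6a12, Slc16a10, Asns, Nprl2 and Nprl3 were chosen after their values were seen. Some genes that are in the counts are not reported here by name. Members and lists were chosen with earlier results of these data known. Alternatives were background, normalization, position, signal source, filters, probe averaging, variance prior and single arrays.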

Additional observations from a re-analysis of the deposited data

How the results depend on the processing

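With 10 carriers called higher and 11 lower by loess, median centring gave 0 and 21, processed signals 2 and 2, the series' own log ratios 1 and 2, and a further demand of 1.5-fold on both arrays 1 and 0. The share of all genes called with median centring was not counted. The remaining settings gave 10 to 11 higher and 9 to 13 lower. The count that rose (1) became 0 with median centring, the series' ratios and the 1.5-fold demand. The count that fell (1) became 2 with position correction, processed signals and the series' ratios, and 0 with the 1.5-fold demand. Among single genes, median centring reversed Slc16a1 (-0.32), Slc36a1 (-0.12), Slc38a10 (-0.47), Slc3a2 (-0.50), Slc6a13 (-0.39), Slc6a8 (-0.20) and Slc7a5 (-0.12). Taken relative to the median of all genes under that setting (-0.40), 3 called carriers changed sign: Slc38a10, Slc3a2 and Slc6a17. Position correction reversed Slc38a7 (0.028) and Slc43a3 (0.013), and processed signals and the series' ratios each put Slc43a3 at 0.015. The cause was not tested. A normexp offset of 10 ended the calls of Slc1a5 (-0.14) and Slc43a3 (-0.16), and the mean of a gene's probes those of Slc43a2 (-0.12), Slc38a10 (0.04) and Slc6a17 (-0.04). Lmo2 kept its direction and call under every alternative run, from -1.91 to -2.57, and was -2.02 without replicate 1 and -1.82 without replicate 2. Of 42 single-array ratios of the 21 called carriers, 0 had the opposite sign to the mean. As the calls rest on the means of these same ratios, this was largely fixed in advance and is no separate support. No paired analysis was possible because each array already pairs both arms in 1 ratio and there is 1 group of 2 arrays. With 1 residual degree of freedom, the calls lean on the variance shared across genes: the prior carried 28 degrees of freedom with loess but 2.2 with processed signals. Signal over background limits the 31 carriers not measured and those near background, such as Slc6a6 and Slc7a3.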
